A study of Mus musculus with 2 samples.

Results

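Fcer2a-negative B cells were the lung B cells in which no transcript of Fcer2a, the gene of the low-affinity IgE receptor CD23, was counted. A cell was taken as a B cell when at least 3 of Cd79a, Cd79b, Ms4a1, Ebf1, Bank1 and Pax5 had a unique molecular identifier (UMI, 1 counted RNA molecule) and when Cd3d, Cd3e, Csf1r, Mertk and Ptprb, genes of T cells, macrophages and endothelium, were at 0. Of 29837 cells that held at least 500 gene UMIs, 200 genes and no more than 20% mitochondrial UMIs, 4023 were B cells and 1985 of these had 0 UMIs of Fcer2a. Among the 1985 cells, 812 had a UMI of Vpreb3, here called the Vpreb3 subset, and 783 had a UMI of at least 2 of Sox5, Il5ra, Mzb1 and Cacna1e, here called the Sox5 set. The subsets overlapped in 293 cells and left 683 cells in neither. The cells were thus selected on their own measured RNA, and the levels of these genes describe how cells were chosen.

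The libraries came from the lungs of 1 mouse labelled GFI1 KO, with a germline knockout, and 1 mouse labelled GFI1 WT, both kept on the C57BL6/J background and, by the study's methods, 5 to 8 weeks old. Lungs were digested with enzymes, live cells were sorted without choosing a cell type, and polyadenylated RNA was read from the 3′ end with 10x Genomics droplets. The knockout was not limited to a cell type. The methods speak of 2 samples per genotype, of which 1 per label was analysed here, and with 1 library per label no difference between labels could be set against the spread between animals. Every interval below is a 95% interval of counting error alone, and no p-value is given.

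CD23 appears on B cells late in their maturation and is a classic mark of follicular B cells. Its absence is shared by several kinds of cell: transitional B cells that have just left the bone marrow, which can still express genes of early B lineage cells such as Vpreb3, marginal zone B cells, memory B cells and B-1 cells. B-1 cells are self-renewing cells of body cavities that secrete natural IgM, respond to IL-5 and carry little of the B220 form of CD45. GFI1 is a zinc finger repressor of transcription that acts in blood cell development and represses its own gene.

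The library labelled KO held 10495 cells and the library labelled WT 19342 cells after these filters, of 10700 and 19515 deposited, with 116825535 and 162599284 gene UMIs in the deposited matrices. Under the KO label 441 cells were Fcer2a-negative B cells, with a median of 3784 gene UMIs, and under the WT label 1544 cells, with a median of 4260. Levels below are summed UMIs per 1000000 UMIs (CPM) of a group of cells, over all genes other than ribosomal protein genes, mitochondrial genes and predicted genes with Gm names. The groups held 1357946 and 6416839 such UMIs. The libraries shared 74 barcodes, of which 5 were Fcer2a-negative B cells under the KO label and 1 with the WT label.

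Gfi1 itself did not follow the labels. In Fcer2a-negative B cells 26 UMIs in 24 cells were counted under the KO label, 19.1 CPM, and 42 UMIs in 34 cells under the WT label, 6.55 CPM. The ratio of KO over WT was 2.93 (1.72 to 4.88). T cells, taken as cells with both Cd3d and Cd3e and none of Cd79a, Ms4a1 and Pax5, pointed the same way with 20.3 against 9.22 CPM, and in Fcer2a-positive B cells Gfi1 stood at 9.17 and 6.41 CPM. Where the deleted part of the gene lies relative to the 3′ reads is not given in the sources used here, so Gfi1 could not check the labels, and the libraries are called by their labels throughout. Gfi1b, the close relative of Gfi1, was at 0 UMIs in Fcer2a-negative B cells of both libraries.

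The B cell label held in the data. Cd22, which was not part of the rule and encodes an inhibitory co-receptor of B cells, stood at 189 CPM under the KO label and 175 CPM with the WT label. The antibody tag against B220, the CD45 form of B cells, had a median of 236 UMIs per cell under the KO label and 132.5 with the WT label, against 2 and 3 on T cells. Levels of the genes that chose the cells were 3121 and 2207 CPM for Cd79a, a signalling chain of the B cell receptor, 5064 and 5138 CPM for Ebf1 and 686 and 827 CPM for Pax5, which are transcription factors that hold B cell fate.

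Few cells lay at the edge of the rule for B cells. Exactly 3 of the 6 B cell genes were detected in 6 Fcer2a-negative cells under the KO label and 16 with the WT label, and cells that missed by having exactly 2 numbered 5 and 24. The edge set by Fcer2a was crowded, since 253 of 481 Fcer2a-positive cells under the KO label and 718 of 1557 with the WT label had a single Fcer2a UMI. Likewise 86 and 285 cells of the Vpreb3 subset had a single Vpreb3 UMI. In the Sox5 set 94 and 298 cells had exactly 2 of the 4 genes, while 161 and 526 Fcer2a-negative cells outside it had exactly 1. Of cells with at least 3 B cell genes, 137 under the KO label (12.9%) and 523 under the WT label (14.4%) were left out for a UMI of another lineage.

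Fcer2a-negative B cells took a smaller share of the recovered lung cells under the KO label, while their share of B cells differed by less than counting error. They were 4.20% (3.83 to 4.60) of all cells under the KO label and 7.98% (7.60 to 8.37) with the WT label (KO minus WT -3.78 points, -4.32 to -3.23). B cells in total were 8.79% and 16.0% of all cells. The libraries differed in other cells too, with 692 of 10495 and 2140 of 19342 cells being T cells, and 130 and 2861 endothelial cells. Of B cells, 47.8% (44.6 to 51.1) under the KO label and 49.8% (48.0 to 51.6) with the WT label were Fcer2a-negative, and the difference was -1.96 points (-5.68 to 1.77).

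Being without an Fcer2a UMI depended on how many UMIs a cell had. Among B cells with 500 to 2000 UMIs, 75% under the KO label and 70.7% with the WT label were Fcer2a-negative, and among those with 4000 to 8000 UMIs 41.0% and 44.8% were. Above 8000 UMIs the share was 38.5% under the KO label (15 of 39 cells) and 56.1% under the WT label (239 of 426 cells). When every cell was thinned to 1500 UMIs, leaving out 114 shallower cells under the KO label and 421 with the WT label, the Fcer2a-negative share of B cells was 74.8% and 74.3% (KO minus WT 0.507 points, -2.74 to 3.64). The share of all cells then read 6.90% and 12.5%. How many of these cells carry CD23 without a counted transcript was not tested.

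The subsets differed in how their shares compared between labels. The Vpreb3 subset was 44.2% (39.5 to 49.0) of Fcer2a-negative B cells under the KO label and 40.0% (37.5 to 42.5) with the WT label (KO minus WT 4.26 points, -1.06 to 9.62), a difference within counting error. The Sox5 set was 32.2% (27.9 to 36.8) under the KO label and 41.5% (39.0 to 44.0) with the WT label (KO minus WT -9.32 points, -14.3 to -4.11). The gap lay in cells of the Sox5 set without Vpreb3, with 72 cells (16.3%) under the KO label and 418 cells (27.1%) with the WT label (KO minus WT -10.7 points, -14.8 to -6.36). The overlap of both subsets was 15.9% and 14.4%. With cells thinned to 1500 UMIs the Sox5 set was 11.2% and 17.6% (KO minus WT -6.47 points, -9.20 to -3.51), so its lower share under the KO label was also present at equal depth.

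**Figure D1:**
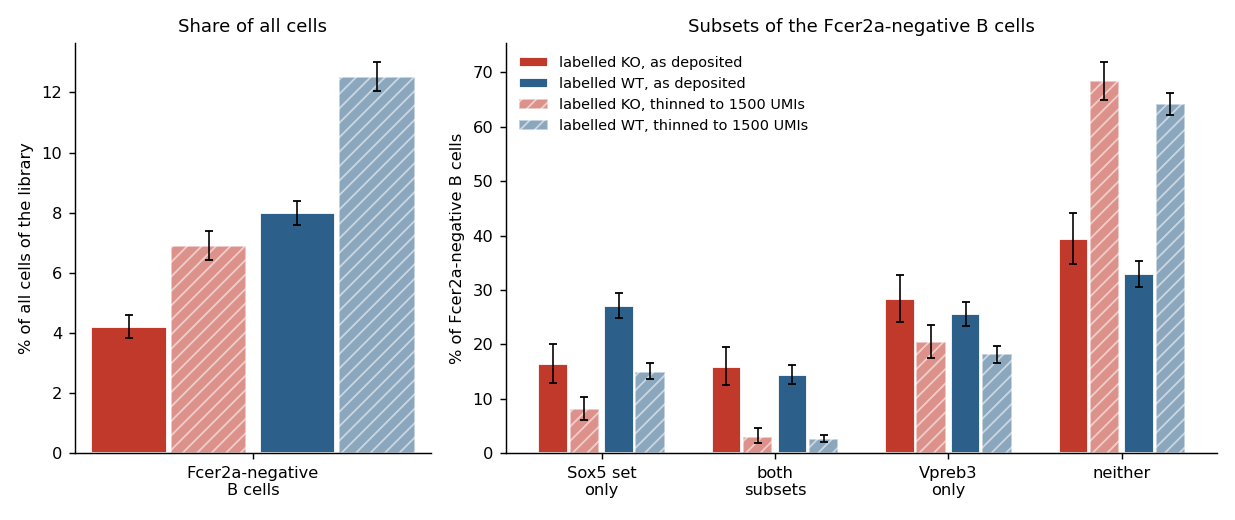
The left panel gives the share of Fcer2a-negative B cells among all cells of the library, in percent. The right panel gives the shares of the classes Sox5 set only, both subsets, Vpreb3 only and neither among Fcer2a-negative B cells. Libraries labelled KO and WT are drawn as deposited and with every cell thinned to 1500 UMIs. Bars are shares and error bars are exact 95% binomial intervals; the Sox5 set is lower under the KO label in both readings (32.2% against 41.5% as deposited, 11.2% against 17.6% thinned).

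The genes that define the subsets were unequally tied to the absence of Fcer2a. Vpreb3, which encodes a protein related to the surrogate light chain of B cell precursors, had a UMI in 44.2% and 40.0% of Fcer2a-negative cells and in 39.7% and 43.0% of Fcer2a-positive cells, against 0% and 0.234% of T cells. Mzb1, a chaperone of IgM assembly, was likewise found in 51.7% in both libraries of Fcer2a-negative and 52.8% and 51.6% of Fcer2a-positive cells. Sox5, a SoxD transcription factor, had a UMI in 17% and 27.3% of Fcer2a-negative cells and in 8.73% and 13.2% of Fcer2a-positive cells. T cells (3.03% and 7.85%) and endothelial cells (9.23% and 12.5%) also had Sox5 UMIs, so the share in Fcer2a-positive cells under each label was close to that of endothelium. Il5ra, the IL-5 receptor, was seen in 17.7% and 29.1% of Fcer2a-negative and 18.5% and 21.5% of Fcer2a-positive cells. Cacna1e, a calcium channel subunit, was seen in 27.4% and 42.4% of Fcer2a-negative and 32.2% and 33.8% of Fcer2a-positive cells. Median depth was 3784 and 4260 UMIs in Fcer2a-negative B cells, 7046.5 and 6596.5 in T cells, and 4279 and 5517 in endothelial cells.

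Cells of the Vpreb3 subset had higher levels of genes of newly formed B cells. For a comparison within a library, a gene was counted when its level differed at least 2-fold in the same direction in both libraries, and 32 of 5852 genes with at least 30 UMIs in each library were higher in the Vpreb3 subset than in cells of neither subset (0.547%) and 1 was lower (0.0171%). In a list of 16 early and transitional B cell genes, 8 had enough UMIs, and 4 of them were higher (Cd93, Vpreb3, Sox4 and Il7r). Vpreb3 is in this count by the rule, and the minimum of 30 UMIs was over both groups, so that a gene could pass it through the group where it is high. In cells of neither subset under the KO label Sox4 had 5 UMIs, Cd93 7 and Il7r 14, and the count is a description. Of the genes named by rank, Agbl1, a member of the carboxypeptidase family, stood at 394 against 15.5 CPM under the KO label and 641 against 143 CPM with the WT label. Cplx2, a complexin of vesicle fusion, stood at 48.9 against 2.22 CPM and 28.1 against 3.38 CPM. Spib, an ETS transcription factor of B cells, stood at 270 against 111 CPM and 264 against 121 CPM. The single gene at least 2-fold lower in both libraries was Klf12, a Krüppel-like repressor (ratios 0.323 and 0.468).

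Sox4, a transcription factor needed early in B cell development, was highest in cells with Vpreb3. Under the KO label its levels were 167 CPM in cells of the Vpreb3 subset alone and 177 CPM in the overlap with the Sox5 set, against 11.1 CPM in cells of neither. Under the WT label the levels were 48.5, 53.6 and 24.4 CPM. Il7r, the IL-7 receptor chain of B cell progenitors and T cells, stood at 139, 94.3 and 31.0 CPM under the KO label and at 41.6, 37.9 and 18.3 CPM under the WT label. Cd93, a surface mark of transitional B cells, differed little between labels, with 30.9 CPM under the KO label and 26.0 CPM with the WT label over all Fcer2a-negative cells.

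Genes of B cell precursors had few or no UMIs in these cells. Igll1, a component of the surrogate light chain, and Vpreb1b were at 0 UMIs in both libraries. Dntt, the polymerase that adds bases at V(D)J joins, and Rag2 of the V(D)J recombinase were at 0 UMIs under the KO label. Rag1, its partner, had 9 UMIs in 7 cells under the KO label and 5 UMIs in 4 cells under the WT label.

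Cells in the overlap of the subsets had lower levels of B-1 genes than the rest of the Sox5 set. Of the Sox5 set, 49.3% under the KO label and 34.8% with the WT label had Vpreb3. Zbtb32, a zinc finger repressor of activated B cells, stood at 54.7 and 82.5 CPM in Sox5-set cells without Vpreb3 and at 0 and 27.7 CPM in those with it. The summed level of 18 B-1 genes was 4428 and 6946 CPM without Vpreb3 and 1168 and 2222 CPM with it. S100a6, a calcium-binding protein, stood at 1306 and 2786 CPM without Vpreb3 and at 82.6 and 467 CPM with it.

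Sox5-set cells without Vpreb3 had higher levels of B-1 genes. Against cells of neither subset, 61 of 4775 genes were at least 2-fold higher in both libraries (1.28%) and 26 were lower (0.545%). In a list of 18 B-1 genes, 11 had at least 30 UMIs in each library, and 9 were higher in both (Ctla4, Vim, S100a6, Il5ra, Cd9, Tppp3, Itgb1, Nt5e and Plscr1). Il5ra is in this count by the rule, and the same limit of the minimum holds. Beside the summed level of the 18 genes in these cells given above stood 1776 and 1388 CPM in cells of neither subset, and 1627 and 1649 CPM in Fcer2a-positive B cells. T cells (6056 and 3957 CPM) and endothelial cells (4807 and 4322 CPM) express many of the same genes at like summed levels, so the list can separate cells only among B cells.

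Single B-1 genes gave the same direction in both libraries. Zbtb32 stood at 54.7 against 2.22 CPM in neither subset under the KO label (16 UMIs against 1) and at 82.5 against 2.03 CPM under the WT label (211 against 3). Tppp3, a tubulin-binding protein, stood at 99.2 against 6.65 CPM and 202 against 2.71 CPM. Bhlhe41, a repressor that maintains B-1 cells, stood at 61.5 against 13.3 CPM and 84.4 against 5.41 CPM. Cd5, the scavenger receptor family protein that divides B-1a from B-1b cells, was scarce, with 2 UMIs under the KO label and 36 with the WT label in these cells. Of 4 V segments of B-1a receptors against phosphatidylcholine, 1 UMI was counted under the KO label and 27 with the WT label in all Fcer2a-negative B cells, too few for a comparison.

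IgM and IgD transcripts moved in opposite directions in these cells. Ighm, the IgM heavy chain, stood at 5378 against 2724 CPM in neither subset under the KO label and 9551 against 2914 CPM with the WT label. Ighd, the IgD heavy chain that is high on follicular cells, stood at 475 against 864 CPM and 304 against 873 CPM. Zfp318, which is needed for IgD transcripts, was at 127 against 308 CPM and 92.3 against 257 CPM. Prdm1, the master regulator of antibody secretion, was at 71.8 against 4.43 CPM and 80.5 against 8.12 CPM, and Cd80, a costimulatory ligand of memory and B-1 cells, at 191 against 11.1 CPM and 220 against 53.5 CPM.

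**Figure D2:**
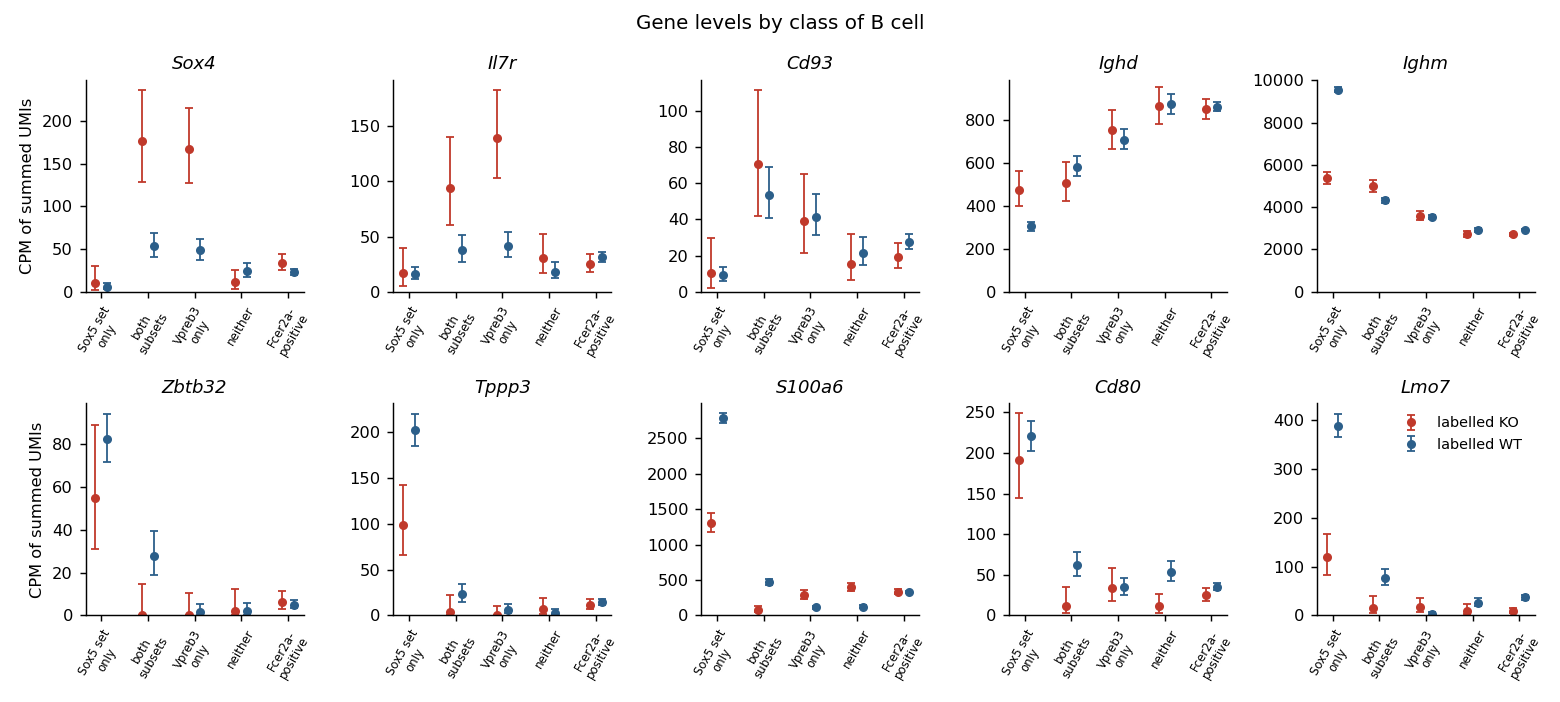
Levels of 10 genes in CPM of summed UMIs, each panel on its own linear axis from 0, in the classes of Fcer2a-negative B cells and in Fcer2a-positive B cells, for the libraries labelled KO and WT. Points are levels and bars are exact 95% Poisson intervals; Sox4 and Il7r are high where Vpreb3 is present, and Zbtb32, Tppp3, S100a6, Cd80 and Lmo7 where the Sox5 set is without it.

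The full Sox5 set, with its Vpreb3 cells included, differed less from the cells of neither subset. At least 2-fold higher in both libraries were 53 of 5658 genes (0.937%) and 18 were lower (0.318%). Named by rank beside the genes above were Lmo7, a protein of cell junctions (71.3 against 8.86 CPM and 296 against 26.4 CPM), Pafah1b3 (130 against 35.4 CPM and 115 against 34.5 CPM) and Ankrd9 (53.0 against 8.86 CPM and 15.9 against 2.71 CPM). Lower in rank were Zfp318, Rapgef4 (49.4 against 153 CPM and 68.1 against 139 CPM), Pde2a (64.0 against 155 CPM and 49.7 against 125 CPM) and Fn1, the fibronectin gene of macrophages and stroma (12.8 against 50.9 CPM and 4.94 against 21.0 CPM). Of 13 measured B-1 genes 4 were higher in both libraries (Il5ra, Bhlhe41, Tppp3 and Nt5e), where Il5ra is in the count by the rule.

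The share of cells with B-1 markers was higher the more of the 4 genes were found in cells without Vpreb3. At least 2 of 7 markers that were not used to choose cells (Cd5, Bhlhe41, Zbtb32, Cd9, Spn, Ctla4 and Plscr1) had a UMI in 5.22% of Fcer2a-negative B cells under the KO label and 16.6% with the WT label, and in 3.12% and 6.42% of Fcer2a-positive B cells. Among cells without Vpreb3 that had none of Sox5, Il5ra, Mzb1 and Cacna1e the share was 0% (0 of 86 cells, which by a limit of 3 counts allows up to 3.49%) under the KO label and 0.873% with the WT label. With all 4 genes it was 66.7% (6 of 9 cells) under the KO label and 81.8% (126 of 154 cells) under the WT label. In cells with Vpreb3 the share also rose under the WT label, from 1.35% with 0 of the 4 genes to 33.3% with all 4 (6 of 18 cells). Under the KO label it was at most 1.92% in cells with Vpreb3 (1 of 52 cells). Cells with more of the 4 genes also had more UMIs, with medians of 7425 and 10897.5 when all 4 were found without Vpreb3. Depth and identity cannot be told apart in this order.

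All 4 genes together were found in 9 cells of the Sox5 set under the KO label (6.34%) and in 172 under the WT label (26.8%). The pair Mzb1 and Cacna1e alone made up 33.1% of the set under the KO label and 19.0% with the WT label. In Sox5-set cells without Vpreb3, 17 of 72 cells (23.6%) under the KO label and 207 of 418 cells (49.5%) under the WT label had at least 2 of the 7 markers (KO minus WT -25.9 points, -36.3 to -13.4), with median depths of 4457.5 and 7132 UMIs. Thinned to 1500 UMIs the shares were 6.90% and 14.9%, and the difference of -7.99 points (-14.5 to 2.45) was no longer outside counting error.

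**Figure D3:**
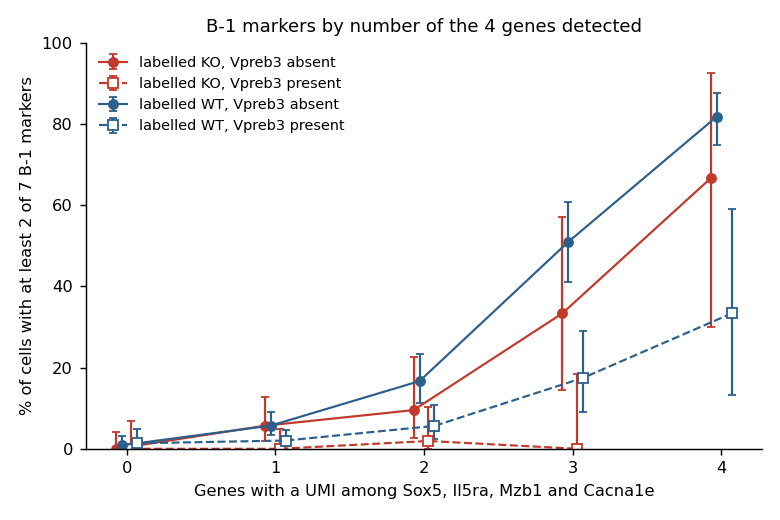
Percentage of Fcer2a-negative B cells with a UMI of at least 2 of 7 B-1 markers, by the number of genes with a UMI among Sox5, Il5ra, Mzb1 and Cacna1e, for cells with and without Vpreb3 and for both libraries. Points are shares and bars exact 95% binomial intervals; without Vpreb3 the share reaches 66.7% under the KO label and 81.8% with the WT label, while with Vpreb3 it is at most 1.92% and 33.3%, where 0 KO-labelled cells had all 4 genes (9 without Vpreb3).

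Antibody tags gave a second readout that the choice of cells did not use. The study's methods describe no tag staining of lung cells, so the panel and clones could not be checked. B220, which B-1 cells carry at low level, had a median of 236 tag UMIs per cell (quartiles 151 to 318) on Fcer2a-negative B cells under the KO label and 132.5 (80 to 181) with the WT label. On Fcer2a-positive B cells it was 273 and 165, so the tag read higher under the KO label on all B cells, as did CD45 with 609 and 452. On Sox5-set cells without Vpreb3 the median was 183.5 (79.5 to 353) and 66 (13.25 to 153), against 250 and 155 on cells of neither subset. CD11b, an integrin of myeloid cells and cavity B-1 cells, had an upper quartile of 16.25 and 35.75 UMIs there, against 7 and 3 on cells of neither subset.

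B220 was set against Fcer2a-positive B cells of the same library, so that the higher staining under the KO label did not enter. A cell was called low in B220 when it had fewer tag UMIs than the 5th percentile of those cells (91 UMIs under the KO label and 50 with the WT label), and 12.02% and 16.3% of Fcer2a-negative cells were low (KO minus WT -4.24 points, -7.71 to -0.383). Of Sox5-set cells without Vpreb3, 20 of 72 (27.8%) and 185 of 418 (44.3%) were low (KO minus WT -16.5 points, -27.5 to -3.72), against 6.90% and 4.52% of cells of neither subset. Cells of the Vpreb3 subset alone differed in the other direction, with 11.2% low under the KO label and 4.57% with the WT label (KO minus WT 6.63 points, 1.07 to 13.8), but with the 10th percentile as the limit the difference of 6.76 points had an interval that covered 0 (-0.696 to 15.3). The limit was not sharp, since 34 and 77 Fcer2a-negative cells lay within 1.2-fold of it.

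**Figure D4:**
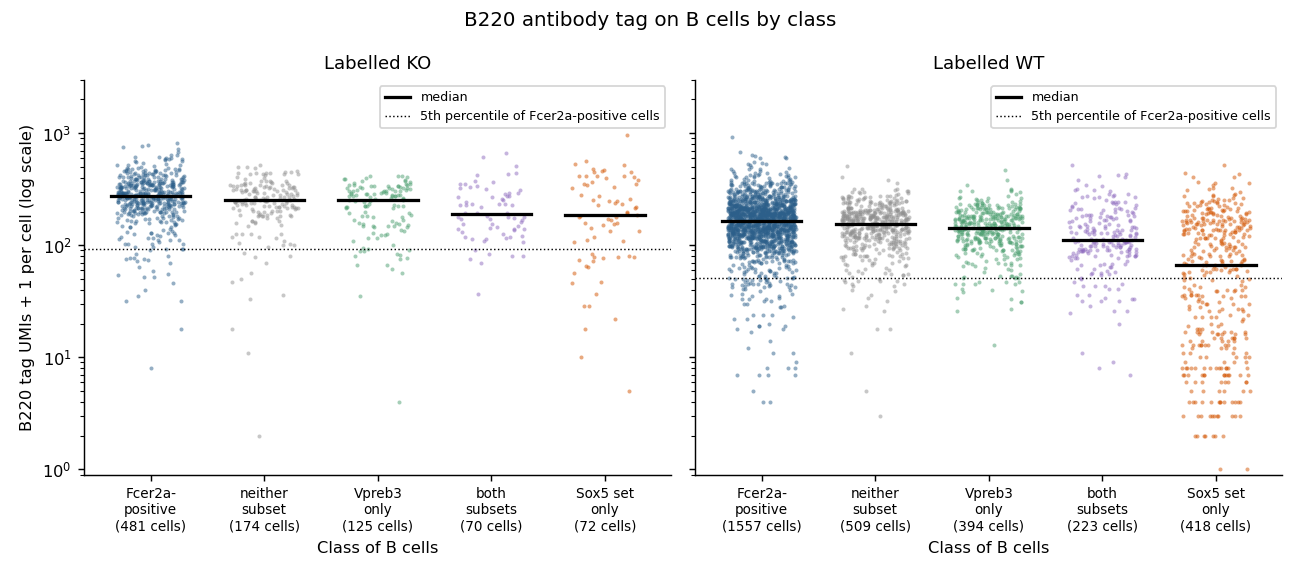
B220 tag UMIs plus 1 per cell on a log axis, by class of B cells, for the libraries labelled KO and WT, 1 point per cell with points spread sideways at random. Bars are medians and the dotted line is the 5th percentile of Fcer2a-positive cells of the same library (91 and 50 UMIs before adding 1); Sox5-set cells without Vpreb3 are below it in 27.8% and 44.3% of cells.

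Cells low in B220 had higher levels of B-1 genes in both libraries. Against the other Fcer2a-negative B cells, 65 of 6531 genes were at least 2-fold higher in both libraries (0.995%) and 89 were lower (1.36%), and 10 of the 13 measured B-1 genes were among the higher, a count open to the same limit, since Tppp3 had 26 UMIs in low cells and 7 in the others under the KO label. Tppp3 stood at 142 against 5.96 CPM under the KO label and 271 against 21.9 CPM with the WT label, the highest gene by rank. S100a6 followed with 2293 against 227 CPM and 3555 against 433 CPM. The genes of the Sox5 set were also higher, Sox5 with 1144 against 152 CPM and 1734 against 349 CPM and Il5ra with 327 against 84.3 CPM and 448 against 160 CPM. Vpreb3 stood at 338 against 417 CPM under the KO label and 59.5 against 305 CPM with the WT label, and Ighd at 479 against 716 CPM and 206 against 689 CPM, so that both were past 2-fold in the WT-labelled library alone.

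Other tags were low on Fcer2a-negative B cells. Medians under the KO and WT labels were 0 and 1 UMIs for CD4, 1 and 2 for CD8a, 4 and 2 for CD11b, 3 and 6 for CD11c, 0 and 0 for Ly-6G, 1 and 2 for NK1.1, 2 and 6 for CD335 and 0 and 1 for KLRG1. They were 2 and 4 for CD117, 1 and 4 for FceRIa, 3 and 6 for CD127 and 7 and 11 for CD196, the chemokine receptor CCR6. CD127 is the product of Il7r. On Vpreb3-subset cells, where Il7r RNA was higher under the KO label, its medians were also 3 and 6, beside 1 and 2 for the isotype control RTK2758. The isotype controls RTK2758 and RTK4530 had medians of 1 and 2 and of 0 and 0 UMIs, and the streptavidin tag 15 and 26. Of the tags in this paragraph CD196 alone had a higher median than on T cells under both labels, where it was 4 and 9.

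Gene levels of all Fcer2a-negative B cells were compared between labels over 10167 genes with at least 30 UMIs in the libraries together. At least 2-fold higher under the KO label were 116 genes (1.14%), and at least 2-fold lower 706 genes (6.94%), with a median log2 ratio of -0.02 over all genes. With cells thinned to 1500 UMIs 112 genes were higher and 241 lower, of which 21 and 100 were among these. The minimum was over both libraries, and the WT-labelled library held more UMIs (6416839 against 1357946), so that a scarce gene could pass through the library where it was high, and counts of list members between labels are descriptions. Among the lower genes were products of other lung cells and B-1 genes, and the higher genes included Sox4 and Il7r. Past 2-fold in either direction were 822 genes (8.08%). In Fcer2a-positive B cells 102 of 9942 genes were higher (1.03%) and 375 lower (3.77%).

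Genes of newly formed and of immature B cells were among those higher under the KO label. Sox4 had 113 UMIs in 50 cells under the KO label and 172 UMIs in 99 cells under the WT label, 83.2 against 26.8 CPM and a ratio of 3.10 (2.43 to 3.96). Il7r had 93 UMIs in 36 cells and 164 UMIs in 92 cells, 68.5 against 25.6 CPM and a ratio of 2.68 (2.05 to 3.48). Sox4 and Il7r were the 2 members of the early and transitional list past 2-fold, of 9 measured, and 0 were lower, beside 1.14% higher and 6.94% lower over all genes, with a median log2 ratio of 0.35 against -0.02. Ly6d, a surface mark of early lymphoid and naive B cells and the most abundant member, stood at 2974 against 2129 CPM (ratio 1.40). Within Vpreb3-subset cells the ratio was 3.36 (2.57 to 4.41) for Sox4 and 3.02 (2.20 to 4.14) for Il7r, and a Sox4 UMI was found in 22.1% and 10.9% of them, or 16.1% and 6.49% after thinning to 1500 UMIs. In Fcer2a-positive B cells the ratios were 1.46 (1.05 to 2.0) and 0.803 (0.559 to 1.13), so the higher level of Il7r under the KO label was not present there. Sox4 ran the other way in cells of neither subset, with 11.1 CPM (5 UMIs) under the KO label and 24.4 CPM (36 UMIs) with the WT label. Il7r in those cells stood at 31.0 and 18.3 CPM (14 and 27 UMIs).

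Nt5e, the ectoenzyme CD73 that makes adenosine and is found on B-1 and memory B cells, was higher under the KO label, against the other B-1 genes. It had 126 UMIs under the KO label and 231 with the WT label, 92.8 against 36.0 CPM and a ratio of 2.58 (2.06 to 3.22). In Sox5-set cells without Vpreb3 the levels were 287 and 66.5 CPM, a ratio of 4.32 (3.29 to 5.65). Fcer2a-positive B cells gave 68.5 and 21.0 CPM, with 49 of the 112 UMIs under the KO label from 1 cell.

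Other genes at the top of the KO-labelled cells came from few molecules. Ifitm6, an interferon-induced membrane protein of myeloid cells, had 25 UMIs in 16 cells under the KO label and 11 UMIs in 10 cells under the WT label, a ratio of 10.7 (5.10 to 24.2). Parm1 (23 and 12 UMIs, 9.06), Col27a1, a fibrillar collagen (23 and 27 UMIs, 4.03), Prss12, a serine protease (27 and 35 UMIs, 3.65), F5, coagulation factor V (27 and 36 UMIs, 3.54), and Entrep2 (26 and 36 UMIs, 3.41) were of the same kind. Ighg2b, the IgG2b heavy chain, had 40 UMIs in 10 cells and 49 UMIs in 6 cells, 29.5 against 7.64 CPM.

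Lyz2, the lysozyme of macrophages and neutrophils, and Lgals3, a galectin of macrophages, were higher under the KO label. Lyz2 stood at 258 against 97.2 CPM, a ratio of 2.65 (2.32 to 3.03), with UMIs in 206 and 432 cells, and Lgals3 at 129 against 53.1 CPM (2.43). Lyz2 was also higher under the KO label in T cells, with 2472 against 1176 CPM, and in Fcer2a-positive B cells, with 207 against 108 CPM. Of a list of 12 monocyte, macrophage and neutrophil genes, 10 were measured, 3 were higher (Fn1, Lcn2 and Lyz2) and 3 lower (S100a8, S100a9 and Retnlg), beside 1.14% and 6.94% of all genes, with summed levels of 482 and 589 CPM and Marco and Retnlg at 0 under the KO label. The part of free myeloid RNA in these values was not tested.

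**Figure D5:**
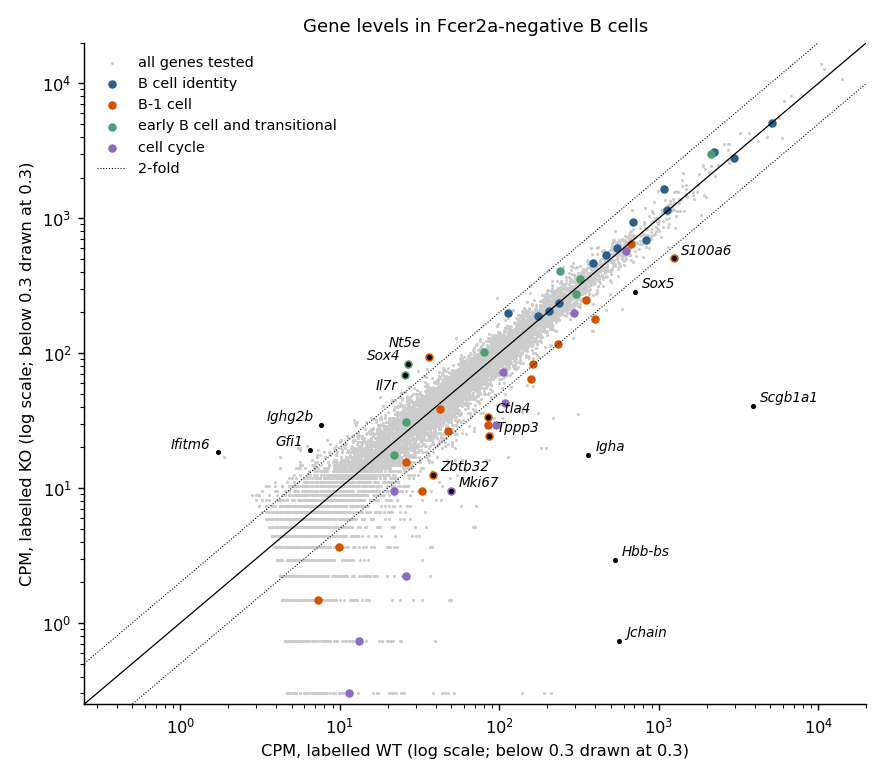
Level of each gene in Fcer2a-negative B cells under the KO label against the WT label, in CPM on log axes, with levels below 0.3 drawn at 0.3. Grey points are all 10167 genes, coloured points the B-1, early and transitional and other marked lists, the solid line equal levels and the dotted lines 2-fold; 706 genes lie at or below the lower dotted line and 116 at or above the upper.

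Of the 12 genes lowest under the KO label, 10 were genes of other lung cells or of red blood cells, and the other two were Jchain and Igha. Scgb1a1, the secretoglobin of airway club cells, had 55 UMIs in 40 cells under the KO label and 24849 UMIs in 668 cells under the WT label, of which 21707 were in 1 cell. Without the cell with most UMIs its ratio went from 0.0105 to 0.0823. The globin genes were alike, with 4 and 3394 UMIs of Hbb-bs, 2326 of them in 1 cell, and with Hba-a1, Hba-a2 and Hbb-bt at 0 under the KO label and at 1347, 1228 and 887 UMIs under the WT label. Dcn and Mgp of stroma, Cbr2 and Wfdc2 of airway epithelium and Ccl17 of dendritic cells were at 0 under the KO label and at 334, 280, 306, 248 and 294 UMIs under the WT label.

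The marker lists of other cells had lower summed levels under the KO label, and the members counted as lower stand beside 6.94% of all genes. Of 10 T and NK genes 4 were measured, which passed the minimum through the WT-labelled library (2 to 13 UMIs each under the KO label) and were all lower, with summed levels of 21.4 and 83.8 CPM, Nkg7 of cytotoxic cells the most abundant, and Trbc2, Cd4, Cd8a and Thy1 at 0 under the KO label. Of 8 endothelial, epithelial and stromal genes 7 were measured and 6 lower, with 443 and 4403 CPM, Pecam1 (396 CPM) and Scgb1a1 (3872 CPM) the most abundant, and Cldn5, Sftpb, Col1a2 and Dcn at 0 under the KO label. Of 6 erythroid and platelet genes 4 were measured, also through the WT-labelled library, and lower, with 2.95 and 1069 CPM, and 5 were at 0 under the KO label. Of 8 dendritic genes 5 were measured and 3 lower, with 431 and 533 CPM, Ly6a the most abundant, and Xcr1, Clec9a and Klk1 at 0 under the KO label. Cells with over 1% of their UMIs from these lists numbered 1 under the KO label and 17 with the WT label, where the highest held 61.6%, and a doublet caller marked 1 and 38 Fcer2a-negative B cells. Leaving out the cell with most UMIs of each gene left 554 lower and 125 higher genes of all tested. Leaving out cells with over 1% other-cell UMIs left 588 lower and 115 higher genes, 575 and 103 of them among the 706 and 116. With 11 genes of other cell types required at 0 there were 568 lower and 127 higher genes, 533 and 102 of them among those. How much of this RNA stayed in the other results was not tested.

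Jchain and Igha, which serve secreted antibodies, were lower under the KO label, and their WT-labelled UMIs lay in few cells. Jchain, which joins IgM and IgA into polymers, had 1 UMI under the KO label and 3596 UMIs in 30 cells under the WT label, with 957 in 1 cell. Igha, the IgA heavy chain, had 24 UMIs in 9 cells and 2322 UMIs in 38 cells, with 656 in 1 cell, a ratio of 0.0488 (0.0312 to 0.0729). Of 15 plasma cell and secretory genes 14 were measured, of which 2 were lower (Jchain and Derl3), beside 6.94% of all genes. Mzb1, a member of that list used by the rule, stood at 395 against 460 CPM, with 595 of 2951 WT-labelled UMIs in 1 cell.

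Most B-1 genes were lower under the KO label. Of 18 measured, 11 were at least 2-fold lower and 1, Nt5e, was higher, beside 6.94% and 1.14% of all genes, with a median log2 ratio of -1.22. S100a6, the most abundant of them under the WT label, had 687 UMIs in 82 cells and 7968 UMIs in 335 cells, 506 against 1242 CPM and a ratio of 0.407 (0.376 to 0.441). Plscr1, a phospholipid scramblase, stood at 29.5 against 84.5 CPM (0.349), Ctla4, an inhibitory receptor, at 33.9 against 84.9 CPM (0.399), and Cd9, a tetraspanin, at 64.1 against 158 CPM (0.406). Tppp3 (0.281), Zbtb32 (0.327), Cd300lf (0.291), Ahnak (0.449), Il10 (0.375), Cd5 (0.201, from 2 and 47 UMIs) and Il5ra (0.499) were the others. Bhlhe41 (0.556), Spn, which encodes the B-1 surface mark CD43 (0.594), Itgb1 (0.515) and Vim (0.957) were within 2-fold.

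B-1 genes were also compared between labels inside single classes. In Sox5-set cells without Vpreb3, 4 of 18 were at least 2-fold lower under the KO label (S100a6, Tppp3, Plscr1 and Cd5) and 1 was higher, with a median log2 ratio of -0.70 against -0.03 over all genes, beside 722 lower genes of 8372 (8.62%) and 212 higher (2.53%). S100a6 there stood at 1306 against 2786 CPM (0.469), Tppp3 at 99.2 against 202 CPM (0.491) and Zbtb32 at 54.7 against 82.5 CPM (0.663, 0.372 to 1.10). Fcer2a-positive B cells showed 1 lower (Cd9) and 1 higher (Nt5e) of 16, beside 3.77% and 1.03% of all genes, with a median log2 ratio of -0.12 against -0.01 over all genes. In cells of neither subset S100a6 ran the other way, with 396 CPM under the KO label and 126 CPM with the WT label.

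Sox5 and Cacna1e, which were part of the rule, stood at lower levels under the KO label, with 286 against 708 CPM and 209 against 469 CPM. Agbl1 was lower in Fcer2a-negative B cells, with 214 against 584 CPM and UMIs in 46 and 359 cells, and also in Fcer2a-positive B cells, with 21.4 against 144 CPM. In the overlap of the subsets its levels were close, 712 and 838 CPM.

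Most cell cycle genes measured stood lower under the KO label in Fcer2a-negative B cells. Of 10 measured, 7 were at least 2-fold lower and 0 higher, beside 6.94% and 1.14% of all genes, and scarce members passed the minimum through the WT-labelled library. Mki67, the proliferation antigen Ki-67, had 13 UMIs in 4 cells under the KO label, 10 of them in 1 cell, and 320 UMIs in 48 cells under the WT label, 9.57 against 49.9 CPM. Top2a, the topoisomerase of dividing cells, stood at 29.5 against 94.9 CPM, and Hmgb2, the most abundant member, at 575 against 618 CPM. Fcer2a-positive B cells ran the other way for Mki67, with 29.4 against 10.7 CPM, where 37 of the 48 UMIs under the KO label came from 1 cell. The counts of dividing cells were small in both libraries.

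Other lists of mature B cell genes had counts past 2-fold that were near or under the share over all genes, which was 8.08% in either direction and 6.94% lower. Of 14 genes of B cell identity, which include the 6 that chose the cells, 0 were past 2-fold. Of 15 genes of B cell receptor signalling, 11 measured follicular genes and 9 measured genes of the BAFF axis, 0 were past 2-fold in either direction. Of 15 genes of antigen presentation and costimulation 1 was lower, Cd80 (56.0 against 118 CPM), and Cd74, the MHC class II chaperone and the most abundant, stood at 13953 against 10450 CPM, with a median log2 ratio of 0.37. Of 17 measured homing genes 1 was lower, the gut-homing receptor Ccr9, with 0 UMIs under the KO label and 48 with the WT label, and Klf2, a regulator of trafficking, stood at 2169 against 1426 CPM. Of 21 transcription factors measured, Gfi1 was higher and Sox5 lower.

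The lists of other B cell states share genes with the lists above and with each other, Cd9, Nt5e, Fcrl5, Cd80 and Mki67 among them, so their counts overlap, and they stand beside 6.94% lower and 1.14% higher of all genes. Of 10 measured marginal zone genes 2 were lower, Cd9 and Fcrl5, an Fc receptor-like protein (25.8 against 90.2 CPM, 0.286), and of 12 measured memory and atypical genes 4 were lower (Nr4a2, Fcrl5, Itgax and Cd80) and Nt5e was higher. Of 7 germinal centre genes measured 4 were lower, Mki67 and Top2a among them. Of 11 interferon genes 2 were lower (Oasl2 and Ifit3), and of 14 immediate-early and dissociation genes 2 were lower, the heat shock genes Hspa1a (7.36 against 23.8 CPM) and Hspa1b (11.8 against 48.8 CPM).

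Gene levels were also compared between labels within each subset. In the Vpreb3 subset 103 of 8468 genes were higher (1.22%) and 433 lower (5.11%), and by rank Sox4, Gpaa1 (27.7 against 5.46 CPM), F5 (35.8 against 7.98 CPM), Il7r, Atp1b1, a sodium pump subunit (138 against 48.7 CPM), and Ptk2, the focal adhesion kinase (61.9 against 21.0 CPM), were highest. In the Sox5 set 174 of 9154 genes were higher (1.90%) and 687 lower (7.5%). Highest there were Bcl2l1, which encodes the survival protein BCL-XL (40.2 against 6.59 CPM, with 12 of 22 UMIs under the KO label in 1 cell), Sox4 (87.8 against 20.1 CPM), Nt5e (174 against 52.5 CPM), Entrep2 (38.4 against 8.51 CPM), Vpreb3 (519 against 194 CPM) and Chchd10, a mitochondrial protein (316 against 116 CPM). Vpreb3 and Sox4 were higher in the Sox5 set under the KO label beside its larger share of cells with Vpreb3, 49.3% against 34.8%. Genes of other lung cells and Jchain were the lowest in both subsets.

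Most Fcer2a-negative B cells were called IgM or IgD. With at least 3 UMIs of constant genes needed for a call, 413 of 441 cells (93.7%) under the KO label and 1503 of 1544 (97.3%) with the WT label were IgM or IgD, 16 and 33 had too few UMIs, and 3 and 1 were mixed. By the same minimum 59 of 692 T cells (8.53%) and 264 of 2140 (12.3%) were called IgM or IgD, and with at least 10 UMIs 0.434% and 0.327% of T cells. Under the KO label 8 cells were IgG (2 IgG1, 4 IgG2b, 1 IgG2c and 1 IgG3) and under the WT label 2 cells (1 IgG2b and 1 IgG2c), and with at least 10 UMIs 1 cell under each label was (IgG3 and IgG2b). IgA was called in 1 and 5 cells, and all 5 under the WT label were in the Sox5 set. IgE was called in 0 of 441 and 0 of 1544 cells, which by a limit of 3 counts allows up to 0.680% and 0.194% of cells with such a call, and does not limit cells that express IgE below the minimum.

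Light chain use was close between labels over all Fcer2a-negative B cells. Kappa was called in 78.9% of Fcer2a-negative cells under the KO label and 75% with the WT label, and lambda in 9.30% and 9.20%. In Sox5-set cells without Vpreb3 lambda was 8.33% under the KO label and 17% with the WT label, and in cells of neither subset 6.90% and 3.14%.

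Fcer2a-negative B cells were set beside Fcer2a-positive B cells of the same library. Under the KO label alone 109 of 8302 genes were at least 2-fold higher (1.31%) and 62 lower (0.747%), and with the WT label alone 459 of 10845 (4.23%) and 64 (0.590%). In both libraries 29 of 8299 genes were at least 2-fold higher (0.349%) and 1 lower (0.0120%), which was Fcer2a itself, at 0 by the rule. Agbl1 (214 against 21.4 CPM under the KO label and 584 against 144 CPM with the WT label), Sox5 (286 against 66.7 CPM and 708 against 169 CPM) and Prdm1 (23.6 against 5.50 CPM and 43.8 against 10.7 CPM) were among the highest by rank. Also named by rank were Rhobtb1, Lmo7, Cplx2, Ankrd9, Hmgn3, Rbm47 and 1 gene without a symbol. Of 14 measured B-1 genes 4 were higher in both libraries (Ctla4, Cd9, Bhlhe41 and Tppp3).

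Apart from Fcer2a, 0 genes were at least 2-fold lower in both libraries. Cr2, the complement receptor CD21 of follicular and marginal zone cells, stood at 79.5 against 151 CPM under the KO label (ratio 0.526) and 132 against 194 CPM under the WT label (0.678). Satb1, a chromatin organizer of lymphocytes, stood at 0.718 and 0.649 of the Fcer2a-positive level, and Stat4, which transmits IL-12 signals, at 0.673 and 0.681. Gpr174, Arl5b, Ms4a4b, Slc2a13, Dipk1a and Rasgrp3 were the others named by rank, with ratios between 0.369 and 0.707.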

How the data were processed

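Raw UMI counts per gene and antibody tag were taken as deposited by the authors, 1 filtered 10x matrix per label with 33696 genes and 18 tags. The submitters' processing notes name Cell Ranger 9.0.1 and the builds GRCm39 and mm39. The study sequenced live-sorted lung cells. Cells with at least 500 gene UMIs, at least 200 genes and at most 20% mitochondrial UMIs were kept. CPM used a total without 9538 ribosomal protein, mitochondrial and Gm genes, which held 25.7% and 24.4% of the UMIs of Fcer2a-negative B cells under the KO and WT labels. No coordinates were used.

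Python 3.11.15 with numpy 2.4.6, scipy 1.17.1, pandas 2.3.3, scanpy 1.11.5 and matplotlib 3.10.9 was used, with Scrublet through scanpy as doublet caller. Its calls were not removed, except as an alternative. Levels had exact Poisson intervals, ratios exact conditional binomial intervals and shares exact Clopper-Pearson intervals, and differences of shares a square-and-add interval, all at 95%. Genes needed 30 UMIs over the groups compared (in each library where both were required), and a count of 0 was replaced by a floor of 3 counts per library for a ratio and as the upper limit of a share of 0. The steps were tested on simulated data.

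The members and the 23 gene lists were chosen with earlier results of these data known, so no pattern here is independent support. Genes were named as members of the rule and the lists, as the genes ranked highest or lowest by the interval bound nearer to 1, Gfi1 and Gfi1b, and the tags, of which some are not reported here. Groups were compared as levels and shares, with no test, since 1 library stood for each label. Rag1, Igll1, Vpreb1b, Dntt, Hmgb2, Nkg7, Cd22, Agbl1 between labels and the tag split by B220 were described after their values were seen. Alternatives covered depth, cell filters, doublets, totals, the UMI minimum, the fold and single cells.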

Additional observations from a re-analysis of the deposited data

How the results depend on the processing

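The lower share of Fcer2a-negative B cells among all cells under the KO label kept its direction at every depth, with KO minus WT differences of -5.95, -5.62 and -4.97 points with cells thinned to 1000, 1500 and 3000 UMIs, beside -3.78 as deposited. The difference of the Sox5 set without Vpreb3 was -4.98 points at 1000 UMIs, beside -10.7. Counts of genes past 2-fold between labels (116 higher and 706 lower) came to 41 higher by the ratio of shares of cells with a UMI, 241 lower with cells thinned to 1500 UMIs, 305 higher with genes of at least 10 UMIs, 28 higher and 252 lower with at least 100 UMIs, and 548 and 1260 at a fold of 1.5. With thinned cells 112 genes were higher, of which 21 were among the 116, and 100 of the 241 lower genes were among the 706, so that 31.7% of the genes past 2-fold were higher, beside 14.1% as deposited. Which of the lower genes are lost for lack of UMIs was not tested.

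Genes past 2-fold in both libraries moved with the same settings. For the Sox5 set against neither subset (53 and 18) there were 7 lower by the mean of CPM over cells, 125 higher and 35 lower at 10 UMIs, 14 and 2 at 100 UMIs, and 151 and 92 at a fold of 1.5. For the Vpreb3 subset (32 and 1) there were 2 lower by the mean of CPM, 84 and 13 at 10 UMIs, 13 and 0 at 100 UMIs, and 96 and 31 at a fold of 1.5. For Fcer2a-negative against Fcer2a-positive cells (29 and 1) there were 67 and 4 at 10 UMIs, 9 higher at 100 UMIs, and 92 and 18 at a fold of 1.5. With at least 10 UMIs for a class call, IgM or IgD was called in 59.2% and 70.5% of cells and IgA in 0% under the KO label. Most other cells had too few UMIs for a call, 179 of 441 (40.6%) under the KO label and 448 of 1544 (29.0%) with the WT label. With the 10th in place of the 5th percentile as the limit of low B220, the differences were -5.14 points, and -21.5 in the Sox5 set without Vpreb3, beside -4.24 and -16.5.

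Of the ratios of named genes and the differences of shares, 1 changed sign, the share of Fcer2a-negative cells among B cells (-1.96 points as deposited and 0.507 thinned to 1500 UMIs, both within counting error). The alternatives that left out cells with over 1% other-cell UMIs or shared barcodes, the ratio of shares of cells and both B220 limits were chosen after seeing the data. Hba-a1, Hba-a2, Dcn and Cbr2 were given no fold under alternatives that left too few UMIs beside their 0. No paired analysis was possible because each label has 1 library. The depth of these cells, with medians of 3784 and 4260 UMIs, limits what a count of 0 means for Fcer2a and for every gene used to define a subset.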
